A study of Rattus norvegicus with 97 samples.

Results

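The receptor genes Gabra2, Gabra4, Gabrb1 and Gabrg1, which lie side by side on rat chromosome 14, were followed through the nucleus accumbens shell of 10 rat lines. The 4 genes were taken by symbol from the array's annotation. Each is measured by 1 probe set, so that they make up 4 of the 31042 probe sets compared and 4 of the 14217 genes with a symbol. The tissue came from 5 pairs of lines in which 1 line was bred to consume alcohol and its partner to avoid it. Named as in the labels, the preferring lines are P, HAD1, HAD2, AA and sP, with NP, LAD1, LAD2, ANA and sNP as their non-preferring partners in that order. There were 10 rats of each line, except for 9 each of LAD1, sP and sNP, and every rat had an array of its own (97 arrays). No treatment, sex or age is given in the labels, nor whether any rat had access to alcohol, so that the line is the only factor compared. A bred line is 1 population: a difference between the lines of a pair belongs to those lines, and relatedness among the rats of a line is not given. Values are deposited log2 RMA signals, so that a difference of 1 is a doubling, and levels of different genes are not set against each other.

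GABA-A receptors are chloride channels built from several subunits around a pore, and they carry most fast inhibition in the brain. The alpha subunit, with its neighbours in the ring, sets how the receptor answers to GABA, benzodiazepines and neurosteroids. In the accumbens, where most neurons are GABA-releasing medium spiny neurons, alpha2 (Gabra2) is a main synaptic alpha subunit. Alpha4 (Gabra4) pairs with delta (Gabrd) in receptors outside synapses that carry tonic current. Beta1 (Gabrb1) forms part of the GABA site, and gamma1 (Gabrg1) takes the gamma position in a minority of receptors; astrocytes also express both. Variation around human GABRA2 has been studied for its link with alcohol dependence, and the comparisons ask whether the rat genes differ between lines bred for alcohol intake.

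In the current rat assembly (GRCr8) the order along the chromosome is Gabrb1, Gabra4, Gabra2, Gabrg1. The coding gene Cox7b2, a cytochrome oxidase subunit relative, lies between Gabra4 and Gabra2. The array was not built on this assembly, and its own build is not known here; only names, order and the sequences below come from RefSeq's tables. The 250 bases before the gene start are shown for Gabra4, Gabrb1 and Gabrg1, the members with an entry among the RefSeq promoters. Gabra2 had no entry there. Gabra4 is at chr14:36944497-36944746 on the plus strand, Gabrb1 at chr14:36902894-36903143 on the minus strand and Gabrg1 at chr14:37750042-37750291 on the plus strand. Each runs 5′ to 3′ towards its gene, in lower case, with matches to the motifs named below in capitals.
Gabra4: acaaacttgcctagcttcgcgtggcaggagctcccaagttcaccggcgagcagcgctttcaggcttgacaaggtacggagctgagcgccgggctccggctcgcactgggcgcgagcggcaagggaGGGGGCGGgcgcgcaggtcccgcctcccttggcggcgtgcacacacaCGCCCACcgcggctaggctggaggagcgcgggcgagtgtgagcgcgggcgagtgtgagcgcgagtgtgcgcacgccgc
Gabrb1: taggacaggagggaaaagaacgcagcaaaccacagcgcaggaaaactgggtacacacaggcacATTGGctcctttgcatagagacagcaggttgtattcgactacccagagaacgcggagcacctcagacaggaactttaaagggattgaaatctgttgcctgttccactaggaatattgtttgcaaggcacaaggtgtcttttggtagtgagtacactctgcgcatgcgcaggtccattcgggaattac
Gabrg1: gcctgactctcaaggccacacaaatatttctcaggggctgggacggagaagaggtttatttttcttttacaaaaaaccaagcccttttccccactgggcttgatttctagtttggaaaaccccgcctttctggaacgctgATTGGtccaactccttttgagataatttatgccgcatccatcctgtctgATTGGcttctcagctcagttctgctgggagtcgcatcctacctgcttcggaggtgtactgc

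The Gabra4 start region is rich in G and C (71.6%) and holds 33 CpG dinucleotides, against a median of 51.2% and 5 CpG over 33469 rat windows of this length. Gabrb1 has 49.2% and 8 CpG, and Gabrg1 has 48.4% and 6 CpG. Short motifs were searched on both strands, as named below. Gabra4 holds 1 GC box (GGGCGG, in 30.5% of all windows) that starts at -123 from the gene start and overlaps a match to GGGGGCG at -125 (13.2% of windows). It also holds 1 match to GTGGGCG on the opposite strand at -78 (6.27% of windows); both G-rich words resemble sites of EGR factors. Gabrb1 has 1 CCAAT box on the opposite strand at -187, and Gabrg1 has 2 there (CCAAT, in 34.02% of windows). Neither a TATA box (TATAAA, 12.9% of windows) nor a cyclic AMP response element (TGACGTCA, 1.59%, or its core TGACG, 18.2%) was matched in any of the 3 windows. A match is a run of letters and was not tied to any measurement here.

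Markers of medium spiny neurons and of adjoining regions were read in each array, which did not test the shell label itself. The average of 15 medium spiny neuron markers had line means between 11.47 and 12.50, and that of 9 markers of the adjoining pallidum, septum and basal forebrain had line means between 7.83 and 9.34. The first average minus the second is used below as a marker index per array; it fell as low as -0.61 in 1 P rat and reached 5.04 in another. A control of the array also differed between pairs. The Affymetrix Gapdh control read 2.83 to 4.89 higher at its 3′ than at its 5′ end in the HAD and LAD lines, against 0.09 to 0.47 in the 6 other lines. On the probe sets that best part the lines of a pair, 8 arrays lay nearer to the other line or midway: HAD1 28, LAD1 37, P 9, NP 9, AA 19, ANA 20, sP 4 and sNP 4. They kept their labels, and results that turn on these departing arrays are given with and without them.

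Gabra2 had its highest mean levels in sNP (12.08 ± 0.22, SD, n = 9), ANA (12.02 ± 0.24, n = 10) and AA (11.99 ± 0.23, n = 10). P (11.58 ± 0.53, n = 10), sP (11.41 ± 0.32, n = 9) and NP (11.39 ± 0.46, n = 10) came next. The lowest were HAD2 (10.89 ± 0.21, n = 10), HAD1 (10.70 ± 0.22, n = 10), LAD1 (10.63 ± 0.29, n = 9) and LAD2 (10.52 ± 0.34, n = 10). Of the neighbours in this order, only NP and HAD2 were further apart (0.50) than the larger SD of both. The step falls between the lines with a low and those with a high Gapdh control difference, and line and processing cannot be told apart there.

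Gabra4 had the widest span of line means (2.07) and the largest SD within a line (1.09, in P) of the 4, although in HAD2 and LAD1 its SD was below those of Gabra2 and Gabrg1. Its line means ran from 9.22 ± 0.38 in ANA through sNP (9.16 ± 0.43), P (9.13 ± 1.09), NP (9.13 ± 0.87) and AA (9.12 ± 0.57) to sP (8.02 ± 0.94). HAD2 (7.86 ± 0.18), LAD2 (7.62 ± 0.35), LAD1 (7.18 ± 0.21) and HAD1 (7.15 ± 0.27) were lowest, again the lines with the high Gapdh control difference. Gaps beyond the larger SD lay between AA and sP (1.10) and between LAD2 and LAD1 (0.44). The Gapdh control difference averaged 2.83 in LAD2 and 4.89 in LAD1, and line and processing cannot be told apart at that gap. Within P rats alone the lowest array (7.05) and the highest (10.56) differed by 3.50.

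Gabrb1 was the steadiest member and one of the brightest probe sets on the array, with 97.9% of probe sets dimmer. Its line means spanned only 0.28, from 12.65 ± 0.17 in P to 12.93 ± 0.14 in sP, and no neighbours in the order were further apart than their SD. The others were AA (12.66 ± 0.23), ANA (12.66 ± 0.22), NP (12.77 ± 0.20), LAD1 (12.79 ± 0.12), sNP (12.79 ± 0.09), HAD2 (12.80 ± 0.09), LAD2 (12.81 ± 0.14) and HAD1 (12.82 ± 0.10).

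Gabrg1 was highest in sP (8.32 ± 0.38) and sNP (8.17 ± 0.37), followed by NP (7.89 ± 0.35), P (7.76 ± 0.40), LAD1 (7.72 ± 0.31), ANA (7.70 ± 0.37) and HAD1 (7.67 ± 0.23). HAD2 (7.35 ± 0.25), LAD2 (7.21 ± 0.26) and AA (7.17 ± 0.58) were lowest. The gap between HAD1 and HAD2 (0.32) was the only one beyond the larger SD of neighbours. The Gapdh control difference averaged 4.71 in HAD1 and 2.91 in HAD2, and line and processing cannot be told apart there. AA thus stood last while its partner ANA stood in the middle.

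**Figure D1:**
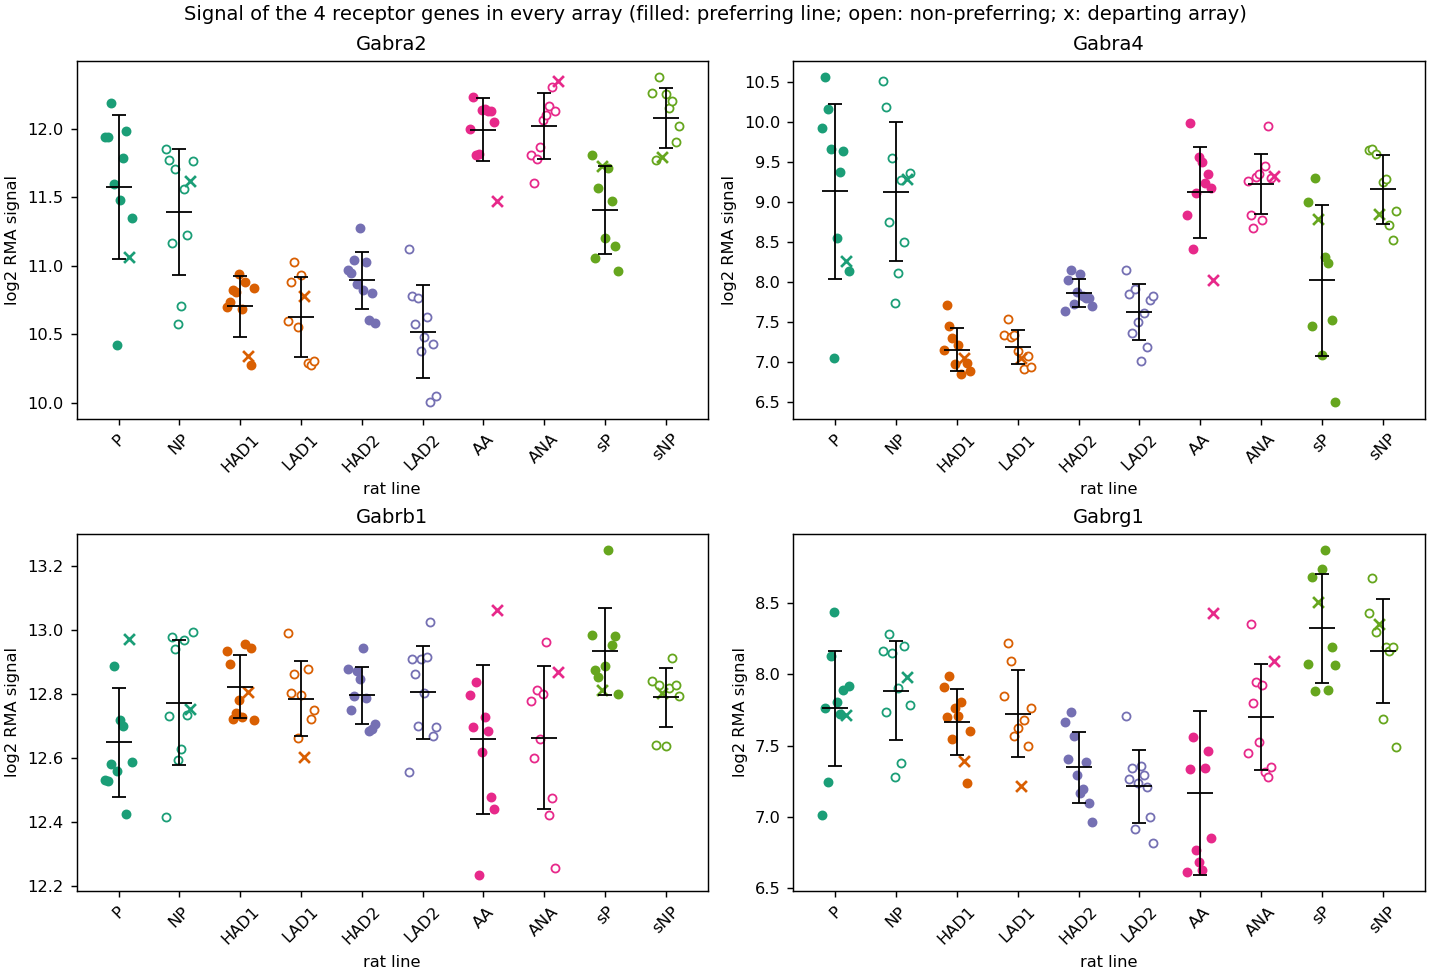
Log2 RMA signal of Gabra2, Gabra4, Gabrb1 and Gabrg1 (y axis, a scale per gene) in each of the 97 arrays by rat line (x axis), filled for preferring and open for non-preferring lines, with the mean and SD in black and departing arrays as crosses. Gabra2 and Gabra4 lie lower in sP than in sNP, and the AA arrays of Gabrg1 lie mostly below the ANA arrays apart from AA 19 at 8.43.

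The line difference was called for members of the cluster in the sP/sNP pair alone. Gabra2, the synaptic alpha subunit, was 1.60-fold lower in sP, and Gabra4, the extrasynaptic one, 2.20-fold lower. Gabrb1 and Gabrg1, at the ends of the same cluster, did not pass the test there. Limma with Benjamini-Hochberg adjustment over all probe sets at 0.05 was used. In this pair 12.9% of probe sets were called and 5.83% were called lower, so that calls are common in it. A separate fit of the 15521 probe sets brighter than the median, adjusted over those alone, called 4216. That count is not a part of the 4006 called over all 31042, because the adjustment differs. Gabra2, Gabra4 and Gabrb1 lie among the brighter probe sets, and Gabrg1 does not.

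Gabra2 signals in sP rats were 10.96 at the lowest, 11.47 at the median and 11.81 at the highest, against 11.77, 12.15 and 12.38 in sNP rats. The ranges overlapped only between 11.77 and 11.81, and 9 of 9 sP rats lay below the sNP median. The difference (sP minus sNP) was -0.67 ± 0.12 (SE, limma, adjusted p = 0.00209; 95% interval -0.93 to -0.42). It was called in each of the 18 fits that left out 1 rat, with differences from -0.73 to -0.62. Without sP 4 and sNP 4 it was -0.75 ± 0.12 (adjusted p = 0.0011), where 15% of probe sets were called.

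Gabra4 signals in sP rats spread from 6.49 through a median of 8.23 to 9.30, against 8.52, 9.24 and 9.67 in sNP rats. The ranges overlapped above 8.52, and 8 of 9 sP rats lay below the sNP median. The difference was -1.14 ± 0.31 (limma, adjusted p = 0.0315; 95% interval -1.79 to -0.48). This call depended more on single rats than that of Gabra2 and was lost in 8 of the 18 fits that left out 1 rat (without sP 2, 5, 8 or 9, or sNP 1, 3, 5 or 9), with adjusted p between 0.0517 and 0.0673 and differences from -1.17 to -0.95 in those 8. Without sP 4 and sNP 4 it was -1.27 ± 0.34 (adjusted p = 0.0243).

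Gabrb1 ran from 12.80 through 12.89 to 13.25 in sP and from 12.64 through 12.82 to 12.91 in sNP. The difference of 0.14 ± 0.06 was in the opposite direction and missed the threshold (limma, adjusted p = 0.0913). Gabrg1 ran from 7.89 through 8.19 to 8.87 in sP and from 7.49 through 8.19 to 8.68 in sNP, with a difference of 0.16 ± 0.16 (adjusted p = 0.563; 95% interval -0.18 to 0.50). The lines shared 1 median for Gabrg1 to 2 decimals.

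The cell type markers moved in the same pair. The mean level of the medium spiny neuron markers was lower in sP (11.47 ± 0.84, range 10.36 to 12.41) than in sNP (12.37 ± 0.31, range 11.79 to 12.63), and 14 of its 15 measured genes were called lower. That of the pallidal, septal and basal forebrain markers was higher (9.34 ± 0.30, range 8.95 to 9.71, against 8.84 ± 0.42, range 8.20 to 9.39), with 5 of 9 called higher. Astrocyte markers averaged 0.18 higher in sP (range 12.03 to 12.25, against 11.82 to 12.18), with 5 of 11 called higher. The marker index was 2.12 ± 1.13 in sP and 3.53 ± 0.69 in sNP. The 4 sP rats with the lowest index (0.74 to 1.49) had the 4 lowest Gabra4 signals of the pair (6.49 to 7.52) and the 4 lowest Gabra2 signals (10.96 to 11.20). In whole tissue, fewer cells of a type and less RNA per cell cannot be told apart.

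With the marker index as a covariate, the sP/sNP difference of Gabra2 was -0.33 ± 0.09 (limma, adjusted p = 0.111) and that of Gabra4 was -0.15 ± 0.18 (adjusted p = 0.998). No member was called, where 0.992% of all probe sets were. The index itself differs between the lines, so this fit does not separate a change within cells from a change in the cells sampled. With the astrocyte mean as a covariate the values were -0.38 ± 0.13 (adjusted p = 0.52) and -0.34 ± 0.34 (adjusted p = 1.0), with 0.586% of probe sets called. With the Gapdh control difference as a covariate Gabra2 kept its call (-0.63) and Gabra4 was -0.997 ± 0.32 (adjusted p = 0.0866).

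In HAD2 against LAD2, Gabra2 differed the other way without reaching the threshold. Its signals were 10.58, 10.91 and 11.28 (lowest, median, highest) in HAD2 and 10.002, 10.52 and 11.13 in LAD2. The ranges overlapped widely, yet 10 of 10 HAD2 rats lay above the LAD2 median. The difference was 0.37 ± 0.12 (limma, unadjusted p = 0.00426, adjusted p = 0.0769), in a pair with 4.6% of probe sets called. It was called without the rat LAD2 11, which had the highest Gabra2 signal of its line (0.44 ± 0.10, adjusted p = 0.0136, with 5.04% of probe sets called). Gabra4 was 0.24 ± 0.12 (adjusted p = 0.352), Gabrg1 was 0.13 ± 0.11 (adjusted p = 0.686) and Gabrb1 was -0.01 ± 0.06 (adjusted p = 0.976). The marker index of the lines differed by 0.09, and with it as a covariate Gabra2 was 0.37 ± 0.12 (adjusted p = 0.0717). With the index as a covariate in the fit of all lines it was called (0.35 ± 0.10, adjusted p = 0.016, with 6.73% of probe sets called). That fit gives the index 1 slope for all lines, whereas r of Gabra2 with the index was 0.04 in HAD2/LAD2 and 0.93 in P/NP. The oligodendrocyte marker mean differed by -0.34 (HAD2 range 10.78 to 11.16, against 10.96 to 11.76 in LAD2), with 5 of 11 called lower, and their part in the Gabra2 value was not tested.

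In AA against ANA the member furthest from 0 was Gabrg1. Its signals were 6.62, 7.09 and 8.43 in AA and 7.28, 7.66 and 8.35 in ANA, and 9 of 10 AA rats lay below the ANA median. The exception was AA 19, a departing array with the highest Gabrg1 signal of the pair. With all arrays the difference was -0.54 ± 0.20 (limma, adjusted p = 0.257), in a pair with 2.35% of probe sets called. Without AA 19 it was -0.68 ± 0.16 (adjusted p = 0.0176, 3.48% of probe sets called), and without AA 19 and ANA 20 it was -0.63 ± 0.16 (adjusted p = 0.0278, 4.44% called). The departing arrays were picked by how they sit between the lines, so calls without them are not independent evidence of a difference. With the marker index as a covariate and all arrays kept it was -0.47 ± 0.13 (adjusted p = 0.0377, 3.33% called), and the index of the lines differed by 0.13. In the fit of all 10 lines it was called without the index (-0.54 ± 0.16, adjusted p = 0.0363, 3.35% called) and with it (adjusted p = 0.0169, 4.87% called). That fit uses a spread shared by all lines, and AA had the largest SD of Gabrg1 of any line (0.58). The SE of that fit can therefore understate the spread in this pair. The astrocyte marker mean of the lines differed by 0.03, with 1 of its 11 genes called (Gfap, 0.92 higher in AA), and with it as a covariate Gabrg1 was -0.60 ± 0.17 (adjusted p = 0.0773). The oligodendrocyte mean differed by -0.23, and its part in the Gabrg1 value was not tested. Gabra2 (-0.03 ± 0.10), Gabra4 (-0.10 ± 0.20) and Gabrb1 (-0.01 ± 0.10) were near 0, each with an adjusted p of 1.0.

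In P against NP no member was called, and 1.05% of all probe sets were. Gabra2 ran from 10.42 through 11.69 to 12.19 in P and from 10.57 through 11.59 to 11.85 in NP, a difference of 0.18 ± 0.21. The marker index of these lines differed by -0.26. Gabra2 was 0.25 ± 0.08 with the index as a covariate (limma, unadjusted p = 0.00459, adjusted p = 0.106), where 894 of 31042 probe sets were called. In the fit of all lines with the index it was 0.24 ± 0.10 (adjusted p = 0.255). Without P 9 and NP 9, and with no covariate, Gabra2 was 0.26 ± 0.22. No member was called in that fit, where 661 of 31042 probe sets were. Gabra4 ran from 7.05 through 9.50 to 10.56 in P and from 7.74 through 9.28 to 10.52 in NP, with a difference of 0.00 ± 0.41 and a 95% interval of -0.86 to 0.87. Its difference with the index as a covariate in the pair's own fit was 0.15 ± 0.12 (limma, adjusted p = 0.694). Gabrb1 was -0.12 ± 0.08 (adjusted p = 0.934) and Gabrg1 was -0.12 ± 0.16 (adjusted p = 1.0).

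In HAD1 against LAD1 the differences were small and none was called (1.2% of all probe sets were). Gabra2 was 0.08 ± 0.11, Gabra4 -0.03 ± 0.11, Gabrb1 0.04 ± 0.05 and Gabrg1 -0.06 ± 0.11, with adjusted p from 0.926 to 0.977 in limma. The 95% interval was -0.15 to 0.31 for Gabra2 and -0.25 to 0.19 for Gabra4.

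**Figure D2:**
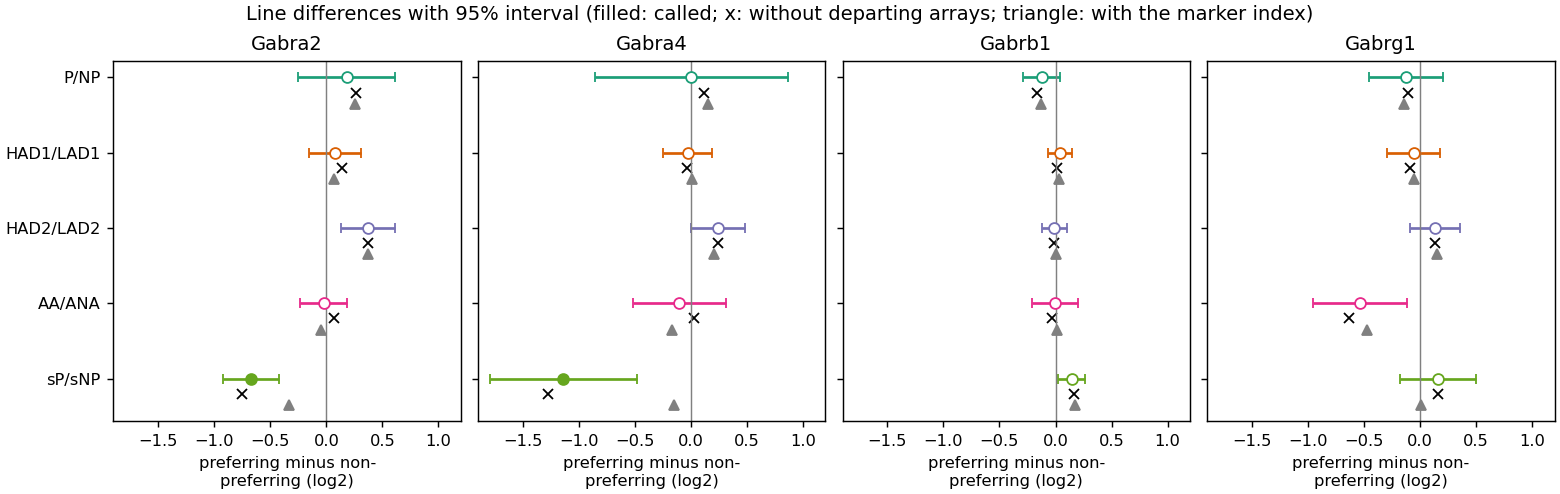
Difference between the preferring and non-preferring line (x axis, log2) of each pair (y axis) for the 4 genes, as points with 95% limma intervals, filled where called. Crosses give the value without the departing arrays and triangles the value with the marker index as a covariate: in sP/sNP the triangle of Gabra4 lies at -0.15 against -1.14 for the point.

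The 5 pairs were then compared with each other. The test that a gene's 5 differences are equal was called for Gabra2 (limma F = 7.24, adjusted p = 0.000911), in a test that called 11.7% of probe sets. It was not called for Gabra4 (adjusted p = 0.0628), Gabrg1 (adjusted p = 0.125) or Gabrb1 (adjusted p = 0.394). With the marker index as a covariate in the fit of all lines, Gabra2 was still called (adjusted p = 0.00207, with 12.1% of probe sets called) and the other 3 were not. That fit gives the index 1 slope for all lines, whereas r of Gabra2 with it ran from 0.93 in P/NP to -0.17 in HAD1/LAD1. Whether unequal slopes move this result was not tested. Without the departing arrays 3 members were called, Gabra2 (adjusted p = 0.000161), Gabra4 (adjusted p = 0.0218) and Gabrg1 (adjusted p = 0.0291), where 17.5% of probe sets were.

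Each pair's difference was also tested against each other pair's, which makes 10 comparisons for each gene. Of the 40 tests on members 4 were called, and each of the 4 involved sP/sNP. For Gabra2, the difference in sP/sNP lay below that in HAD2/LAD2 by 1.05 ± 0.21 (adjusted p = 0.000192, limma), below that in P/NP by 0.86 ± 0.21 (adjusted p = 0.0067) and below that in HAD1/LAD1 by 0.75 ± 0.21 (adjusted p = 0.025). Against AA/ANA the gap was 0.65 ± 0.21 (adjusted p = 0.0596). For Gabra4 it was called with all arrays against HAD2/LAD2 (1.38 ± 0.39, adjusted p = 0.0141); against the other 3 pairs the gaps were 1.03 to 1.14, with adjusted p from 0.103 to 0.136. The comparisons share the sP and sNP arrays and are not independent of each other. The share of all probe sets called with sP/sNP on 1 side was 10.3% for HAD2/LAD2, 2.66% for P/NP, 3.12% for HAD1/LAD1 and 3.55% for AA/ANA.

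Without the departing arrays 10 of the 40 tests were called. The 4 calls above were among them, with adjusted p from 5.7e-05 to 0.00663 in limma. Gained with sP/sNP on 1 side were Gabra2 against AA/ANA (0.82, adjusted p = 0.00756), Gabra4 against P/NP (1.39, adjusted p = 0.0271) and against AA/ANA (1.30, adjusted p = 0.0337), and Gabrb1 against P/NP (-0.32, adjusted p = 0.0461). Gabrg1 in AA/ANA against sP/sNP was gained too (-0.79, adjusted p = 0.0174; with all arrays -0.69 ± 0.23, adjusted p = 0.0762). The shares of all probe sets called against sP/sNP were then 14.6% for HAD2/LAD2, 5.83% for P/NP, 5.99% for HAD1/LAD1 and 8.6% for AA/ANA.

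With the marker index as a covariate in the fit of all lines, the sP/sNP gap of Gabra2 stayed called against HAD2/LAD2 (0.69 ± 0.15, limma, adjusted p = 0.00108; 4.39% of probe sets called) and P/NP (0.58 ± 0.15, adjusted p = 0.0142; 2.2% called). It was not called against HAD1/LAD1 (0.44 ± 0.15, adjusted p = 0.132; 2.49% called), and that of Gabra4 was not called against HAD2/LAD2 (0.53 ± 0.18, adjusted p = 0.0716). These gaps rest on 1 slope of the index shared by all lines. With that slope Gabra4 in sP/sNP was -0.33, against -0.15 in the pair's own fit.

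Among the 4 other pairs no member was called with all arrays. For Gabrg1, HAD2/LAD2 minus AA/ANA was 0.67 ± 0.22 (limma, adjusted p = 0.077). It was called without the departing arrays (0.77 ± 0.22, adjusted p = 0.0167, with 4.82% of probe sets called) and with the marker index in the fit of all lines (0.66 ± 0.20, adjusted p = 0.0314, with 6.02% called). With all arrays the shares of all probe sets called were 2.16% for P/NP against HAD1/LAD1, 3.94% for P/NP against HAD2/LAD2 and 2.85% for P/NP against AA/ANA. They were 3.05% for HAD1/LAD1 against HAD2/LAD2, 2.9% for HAD1/LAD1 against AA/ANA and 4.21% for HAD2/LAD2 against AA/ANA.

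On average over the 5 pairs no member was called, where 3.37% of probe sets were. The averages were -0.01 ± 0.06 for Gabra2, -0.20 ± 0.12 for Gabra4 (limma, adjusted p = 0.47), 0.01 ± 0.03 for Gabrb1 and -0.09 ± 0.07 for Gabrg1. No member had the same sign in all 5 pairs. With the 5 pairs as the replicates, limma called 0% of probe sets at the adjusted threshold, although 1214 had an unadjusted p under 0.05; the 95% interval for Gabra2 was -0.37 to 0.34.

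Across rats, Gabra2 and Gabra4 varied together. After line means were subtracted, Gabra2 and Gabra4 correlated over the 97 arrays (Pearson r = 0.76, Spearman rho = 0.71, adjusted permutation p = 3.33e-05 for both, from the smallest value that 100000 permutations within lines allow). Without the 2 farthest arrays r was 0.70. By pair r was 0.93 in P/NP, 0.78 in AA/ANA, 0.75 in sP/sNP, 0.49 in HAD2/LAD2 and 0.32 in HAD1/LAD1. Gabrb1 and Gabrg1 had r = 0.31 (rho = 0.25, adjusted permutation p = 0.0157 and 0.0456), and r was 0.21 without the 2 farthest arrays and from 0.08 in P/NP to 0.54 in AA/ANA by pair. The 4 relations between these sets of genes had r from -0.20 to -0.07, with adjusted permutation p from 0.12 to 0.551 for r. Their signs differed by pair: Gabra2 with Gabrg1 had r = 0.52 in HAD1/LAD1, 0.49 in HAD2/LAD2 and -0.52 in AA/ANA, and Gabra4 with Gabrg1 had 0.42 in HAD1/LAD1 and -0.59 in AA/ANA. Gabrb1 ran from -0.27 in AA/ANA to 0.37 in sP/sNP with Gabra2, and from -0.50 in AA/ANA to 0.06 in sP/sNP with Gabra4. In all 10 relations were tested.

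The marker index moved with Gabra4 most closely. Its r with Gabra4 was 0.90 (rho = 0.83, adjusted permutation p = 3.33e-05), 0.88 without the 2 farthest arrays, and by pair 0.96 in P/NP, 0.90 in sP/sNP, 0.83 in AA/ANA, 0.74 in HAD2/LAD2 and 0.54 in HAD1/LAD1. With Gabra2 r was 0.71 (rho = 0.61, adjusted permutation p = 3.33e-05), and 0.64 without the 2 farthest arrays. By pair it was 0.93 in P/NP, 0.84 in sP/sNP and 0.67 in AA/ANA but 0.04 in HAD2/LAD2 and -0.17 in HAD1/LAD1. The SD of the index was 0.22 to 0.67 in the HAD and LAD lines, against 0.64 to 1.95 in the other lines. Over so narrow a range a low r does not show that the relation is absent. Gabrg1 ran against the index (r = -0.42, rho = -0.38, adjusted permutation p = 0.000275 and 0.001; r = -0.36 without the 2 farthest arrays), most so in AA/ANA (r = -0.80), while in HAD1/LAD1 r was 0.01. Gabrb1 had r = -0.25 (rho = -0.25, adjusted permutation p = 0.0575 and 0.0456; r = -0.29 without the 2 farthest arrays), from -0.59 in HAD2/LAD2 to 0.19 in sP/sNP. The points share array, dissection and amplification.

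**Figure D3:**
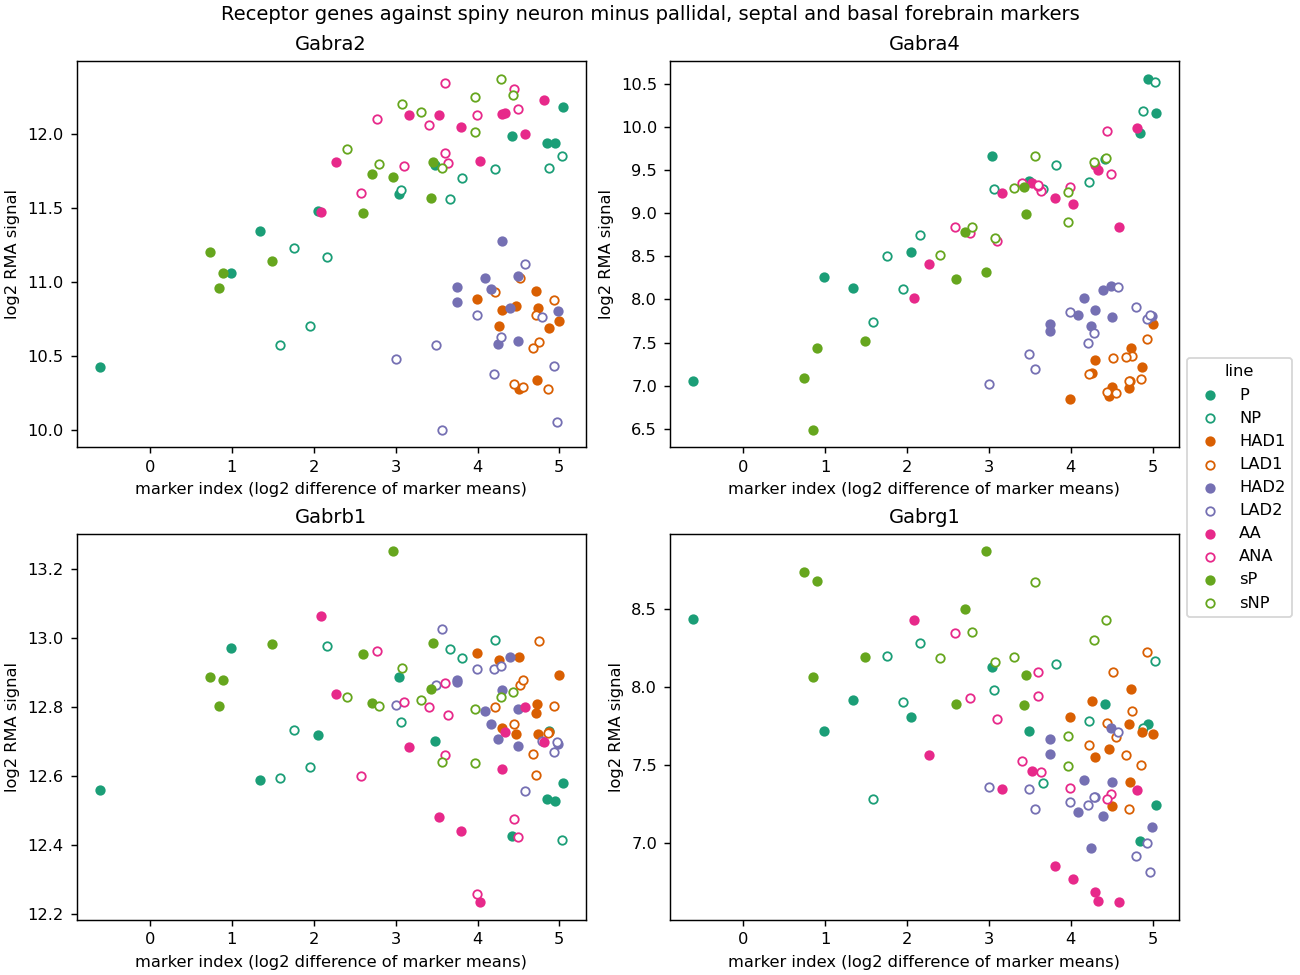
Log2 RMA signal of each gene (y axes) against the marker index (x axes, mean of spiny neuron markers minus mean of pallidal, septal and basal forebrain markers, log2) in 97 arrays coloured by pair, filled for preferring lines. Gabra4 climbs with the index in every pair (r 0.54 to 0.96), whereas the HAD and LAD lines sit apart at lower Gabra2 and Gabra4 signals.

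The genes most like each member over the 97 arrays, after line means were subtracted, are given as a description. For Gabra2 they were the AMPA receptor subunit Gria2 (r = 0.83), the transcription factor Mef2a (0.81) and the transcription factor Pou3f4 (0.80). For Gabra4 they were Arpp19, an inhibitor of protein phosphatase 2A (0.92), the potassium channel Kcna4 (0.91) and Ano3, of the anoctamin family (0.91). For Gabrb1 they were Zdbf2 (0.72), the calcium/calmodulin-dependent kinase Camk1g (0.68) and N4bp2 (0.68). For Gabrg1 they were Cxxc4, an inhibitor of Wnt signalling (0.71), the sugar phosphate mutase Pgm3 (0.67) and Mpv17l (0.64).

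The other GABA-A subunits put the cluster's values in context. They were read for 12 further subunit genes. None of the 12 was called in P/NP, HAD1/LAD1, HAD2/LAD2, AA/ANA or on average. In sP/sNP 4 were called, 2 in each direction, where 12.9% of all probe sets were. The median difference over the 12 was -0.01, against 0.00 over all probe sets, and the 4 cluster genes had a median of -0.27. Gabrd, the delta partner of alpha4, was lower in sP by about as much as Gabra4 with its brightest probe set (-1.12 ± 0.33, limma, adjusted p = 0.0362). Of the 3 Gabrd probe sets 2 were called, and their differences ran from -1.12 to -0.12. Gabra5, another alpha subunit of extrasynaptic receptors, was lower too (-0.54 ± 0.12, adjusted p = 0.0112). Gabre, the epsilon subunit (0.65 ± 0.17, adjusted p = 0.0295; 1 of 2 probe sets called, the other at -0.03), and Gabrb2, the beta2 subunit (0.55 ± 0.16, adjusted p = 0.0358; 1 of 2 called), were higher. With the marker index as a covariate none of the 12 was called. Gabra5 also differed between pairs (adjusted p = 0.000908 in the limma F test), as Gabra2 did.

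**Figure D4:**
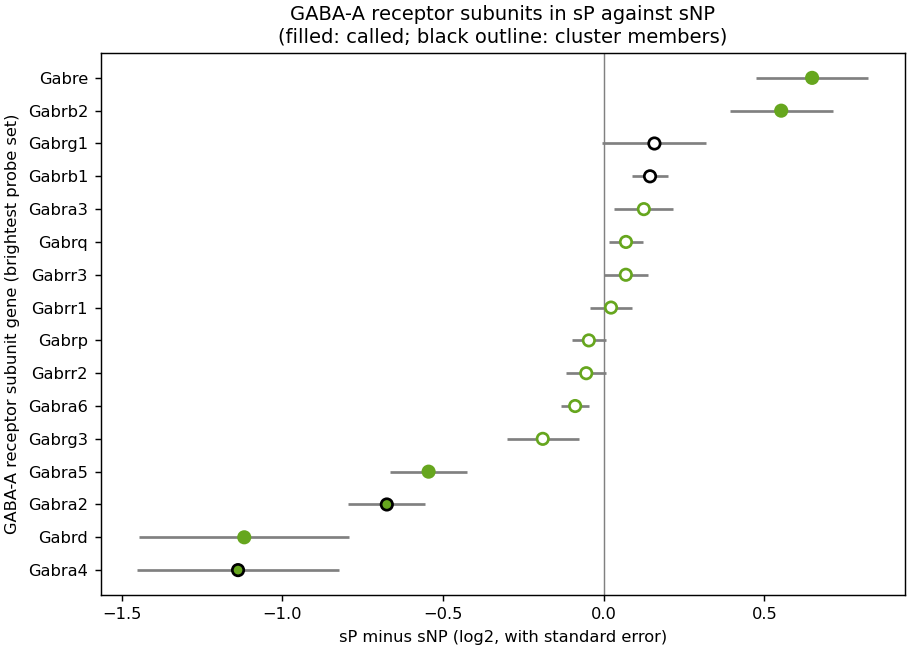
Difference of sP minus sNP (x axis, log2, with standard error) for 16 GABA-A subunit genes (y axis, brightest probe set of each), filled where called and with a black outline for the 4 cluster genes. Gabra4 and Gabrd lie lowest at -1.14 and -1.12, and Gabre (0.65) and Gabrb2 (0.55) highest.

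Genes that hold GABA-A receptors at the membrane and that make or move GABA were examined as 2 further lists. Of 18 measured scaffold, trafficking and assembly genes, 2 were called lower in HAD2/LAD2: Hap1, which aids receptor recycling (-0.42, limma, adjusted p = 0.00595), and Gabarapl1, a relative of the GABA-A receptor-associated protein (-0.25, adjusted p = 0.0253; 1 of 2 probe sets called, the other at -0.10). In HAD2/LAD2 4.6% of all probe sets were called. In sP/sNP, with 12.9% called, 3 of the 18 were called higher and 1 lower. The gephyrin-binding exchange factor Iqsec3 (0.94), the kinesin Kif5a (0.41) and the palmitoyltransferase Zdhhc3 (0.25; 1 of 2 probe sets called) were higher. Shisa7, an auxiliary subunit of the receptor, was lower (-0.57, adjusted p = 0.0487). Of 11 measured genes of GABA synthesis, transport, breakdown and chloride handling, 4 were called in sP/sNP, all higher. They were the chloride importer Slc12a2 (0.35), the GABA-degrading enzyme Aldh5a1 (0.40; 1 of 3 probe sets called), the GABA-B receptor subunit Gabbr2 (0.40; 1 of 2 called) and the vesicular GABA transporter Slc32a1 (0.21). Neither list had a call in P/NP, HAD1/LAD1 or AA/ANA, and with the marker index as a covariate no gene of either was called in sP/sNP.

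The neighbourhood of the cluster was read along the chromosome, with 15 measured genes on each side and Cox7b2 within it. Cox7b2, between Gabra4 and Gabra2, was not called in any pair, although both its neighbours were lower in sP. Of the 31 neighbours, 0 were called in P/NP and in HAD1/LAD1 (limma), 1 in HAD2/LAD2, 1 in AA/ANA and 9 in sP/sNP. The shares of all probe sets called were 1.05% in P/NP, 1.2% in HAD1/LAD1, 4.6% in HAD2/LAD2, 2.35% in AA/ANA and 12.9% in sP/sNP. Neighbours are read by their brightest probe set. The separate fit of the 15521 brighter probe sets, with its own adjustment, called 4216 in sP/sNP. The 9 split into 4 higher (Bend4 0.92, Apbb2 0.67, Slc10a4 0.63 and Atp10d 0.37) and 5 lower (Sgcb -1.08, Grxcr1 -0.76, Atp8a1 -0.36, Ociad2 -0.34 and Commd8 -0.19). Of the 4 Apbb2 probe sets 2 were called, and their differences ran from -0.17 to 0.67. Higher and lower calls lay on both sides of the cluster.

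The furthest called differences among the neighbours were of 1 probe set. Sgcb, a sarcoglycan, was -3.14 ± 0.17 in HAD2/LAD2 (adjusted p = 3.21e-11), but its 2 other probe sets had the opposite sign there (up to 0.42, 1 of them called), and both were called in the opposite direction in sP/sNP. In HAD1/LAD1 the Sgcb probe set of the plot was at 1.83 ± 0.79, which was not called (adjusted p = 0.411). Grxcr1, a glutaredoxin-like gene 3 steps beyond Gabrg1 with 1 probe set, was 1.70 ± 0.25 higher in AA (adjusted p = 0.000321) and -0.76 ± 0.14 in sP/sNP (adjusted p = 0.00338). The aminophospholipid flippase Atp8a1 was lower in sP with all 3 of its probe sets (-0.43 to -0.36). Whether sequence differences between lines under the probes move a single probe set was not tested, for these genes or for the 4 members, each of which rests on 1 probe set.

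**Figure D5:**
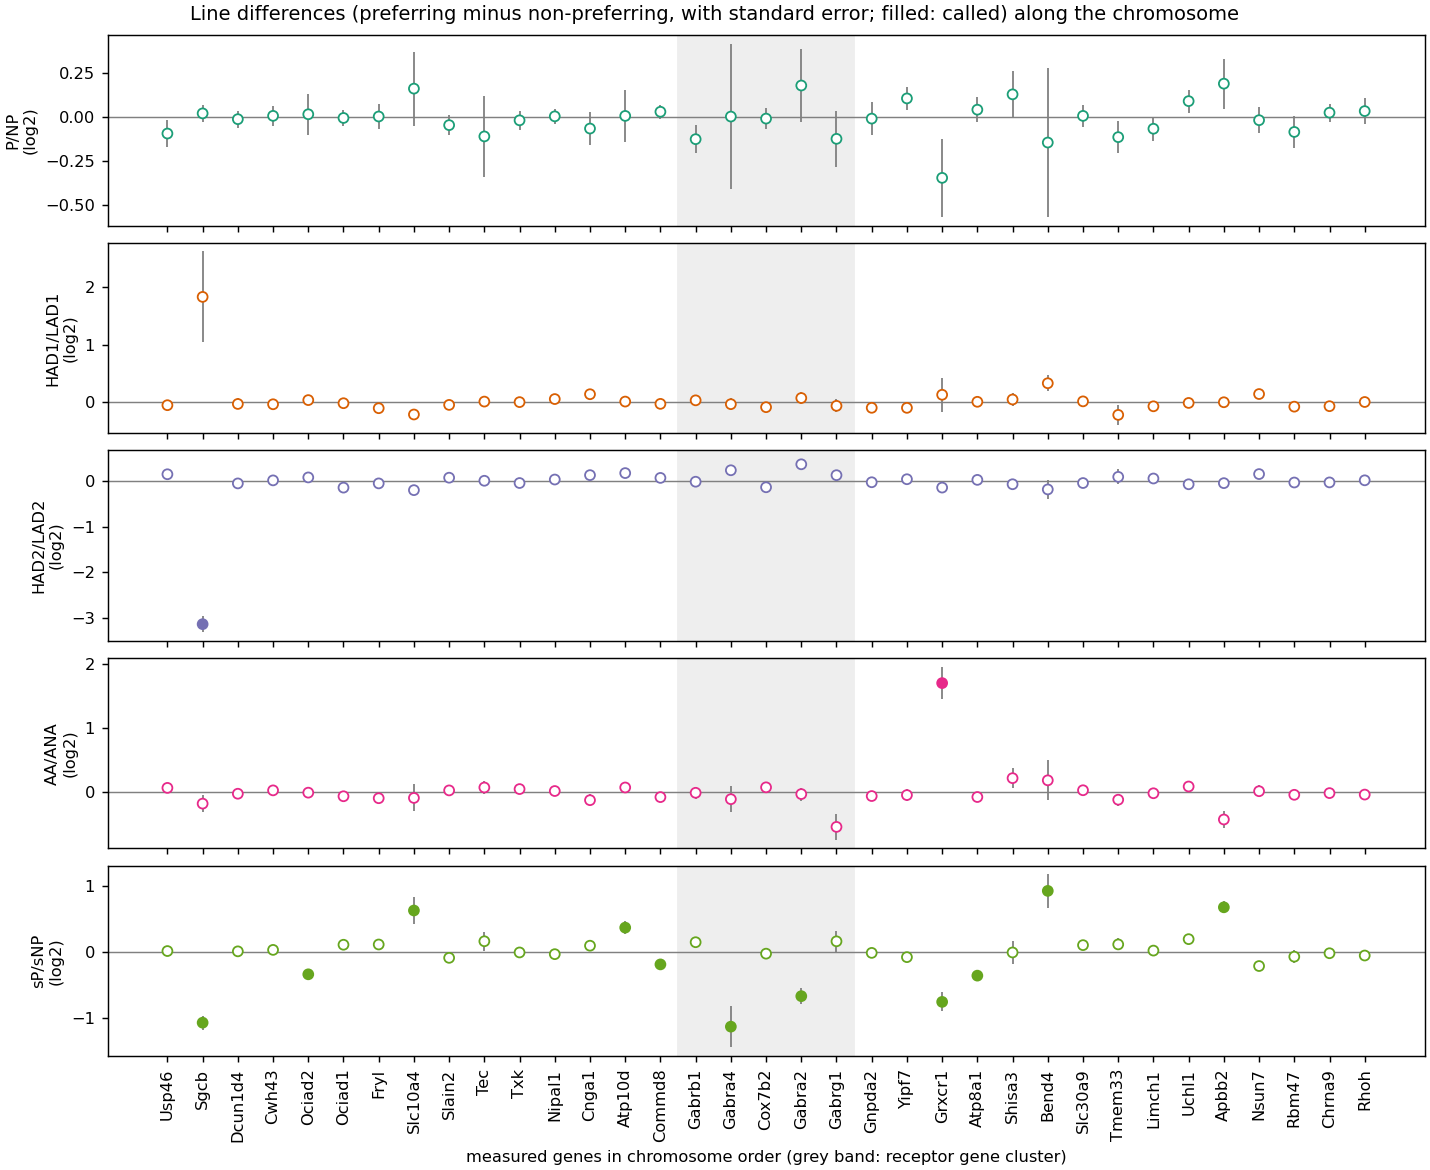
Difference between preferring and non-preferring line (y axes, log2, with standard error; a scale per pair) for the cluster (grey band) and 15 measured genes on each side in chromosome order (x axis), filled where called. In sP/sNP higher and lower calls are mixed along the order, and the largest called values are Sgcb at -3.14 in HAD2/LAD2 and Grxcr1 at 1.70 in AA/ANA.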

How the data were processed

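Accumbens shell RNA of 97 rats was hybridised to Affymetrix rat arrays after 2 cycles of amplification from 25 ng, per the labels' protocols. The authors deposited log2 signals made with RMA, per the submitters' processing notes (version not given in the sources used here), and these were used with no further scaling (array medians 7.82 to 8.02). The number of arrays limits the precision. Of 31099 probe sets 57 AFFX controls were left out. Symbols come from the platform annotation, which can be old (20826 probe sets with 1 symbol, 436 with several, 9780 with none), and promoters from RefSeq tables of GRCr8, which matched 3 of the 4 members.

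Each pair was fitted alone with limma 3.58.1 in R 4.3.3 (lmFit, eBayes, two-sided, Benjamini-Hochberg over 31042 probe sets, threshold 0.05). All lines in 1 fit gave the average, the F test and the tests between pairs. Where the marker index was added to that fit, it had 1 slope for all lines. Other genes are represented by their brightest probe set. All members were named, with up to 4 called genes per list and pair, every called neighbour up to 8 per pair and the 3 most alike genes per member. Line means were subtracted before correlations. Departing arrays lay over 0.3 from their label's end of a score over 50 probe sets computed from the other rats. P-values measure the spread between rats of a line. The fit was tested on simulated data. The members and lists were chosen with earlier results of these data known. Alternatives were median scaling, quantile normalization, a brightness filter, trended robust variances, covariates, a shared spread, an animal-number block and leaving out arrays; the Gapdh covariate, the marker index in the fit of all lines and the alternatives for correlations were added after seeing the data.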

Additional observations from a re-analysis of the deposited data

Results flagged for a closer look

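In 2 of the 40 combinations of line and gene 1 rat lay far from the others of its line; chance gives about 1 in 20 such groups. Gabrb1 was 13.25 in sP 6, 0.27 above the next sP rat. Gabrg1 was 8.43 in AA 19, a departing array, 0.87 above the next AA rat.

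The line difference differed between pairs in 4 tests, each by limma. For Gabra2, the difference in sP/sNP lay below that in P/NP by 0.86, below that in HAD1/LAD1 by 0.75 and below that in HAD2/LAD2 by 1.05. For Gabra4 it lay below that in HAD2/LAD2 by 1.38. The marker index moved in the same direction in sP/sNP (-1.41) and by 0.09 in HAD2/LAD2. With it as a covariate in the fit of all lines, the gap of Gabra2 stayed called against P/NP (0.58, adjusted p = 0.0142) and HAD2/LAD2 (0.69, adjusted p = 0.00108). The gap of Gabra2 to HAD1/LAD1 was 0.44 (adjusted p = 0.132) and that of Gabra4 to HAD2/LAD2 was 0.53 (adjusted p = 0.0716). In that fit the index has 1 slope for all lines.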

How the results depend on the processing

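Median scaling, quantile normalization, trended robust variances, 1 value per gene and the animal-number block changed no call of a member. The number of members called rose from 0 to 1 in HAD2/LAD2 with the marker index in the fit of all lines (Gabra2, 0.35, limma, adjusted p = 0.016; 6.73% of all probe sets called, against 4.6%). It rose from 0 to 1 in AA/ANA (Gabrg1) without the departing arrays, with all 10 lines in 1 fit, and with the marker index in either fit; the shares of all probe sets called were then 4.44%, 3.35%, 3.33% and 4.87%, against 2.35%. In sP/sNP it fell from 2 to 0 with the marker index in either fit and with the astrocyte mean, and to 1 with the Gapdh difference. Of all probe sets, 0.992% were called there with the index in the pair's own fit and 0.586% with the astrocyte mean. Of the 31042, 524 were called with the index in the fit of all lines and 863 with the Gapdh difference. For the equality of the 5 differences the number of members called rose from 1 to 3 without the departing arrays (17.5% of probe sets called, against 11.7%). It rose to 2 over the probe sets brighter than the median, where 2569 of 15521 were called. Fewer are tested there and Gabrg1 has no value. Over the tests between pairs the number of calls rose from 4 to 10 without the departing arrays. In the 5 comparisons concerned 4.82% to 14.6% of all probe sets were then called, against 2.66% to 10.3%. The causes of these changes were not tested beyond that.

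With 1 rat left out, the members called numbered 0 to 1 in AA/ANA (1 without AA 19), 0 to 1 in HAD2/LAD2 (1 without LAD2 11) and 1 to 2 in sP/sNP. Differences close to 0 changed sign, none of them called. Leaving out 1 rat gave ranges of -0.071 to 0.032 for Gabra2, -0.20 to 0.017 for Gabra4 and -0.051 to 0.042 for Gabrb1 in AA/ANA. The ranges were -0.091 to 0.016 for Gabra4 and -0.12 to 0.0044 for Gabrg1 in HAD1/LAD1, -0.15 to 0.24 for Gabra4 in P/NP and -0.037 to 0.015 for Gabrb1 in HAD2/LAD2.

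Without the departing arrays Gabra2 was 0.068 and Gabra4 0.028 in AA/ANA, the average was 0.018 for Gabra2 and -0.0045 for Gabrb1, and the correlation of Gabrb1 with Gabra2 was 0.030. With the marker index Gabra4 was 0.0065 in HAD1/LAD1, Gabrb1 was 0.0017 in HAD2/LAD2 and Gabrb1 was 0.013 in AA/ANA. With that index in the fit of all lines Gabra4 was 0.012 in HAD1/LAD1, Gabrg1 was -0.064 in sP/sNP, and the average was 0.059 for Gabra2 and -0.0041 for Gabrb1. With the astrocyte mean Gabrb1 was 0.030 in HAD2/LAD2, Gabra2 was 0.0063 in AA/ANA and Gabrg1 was -0.080 in sP/sNP. With the Gapdh difference Gabra4 was -0.056 in P/NP.

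Lines carry the same animal numbers in P/NP and in sP/sNP alone. The same-numbered rats did not deviate together throughout (6 of 10 correlations over 0.1 in P/NP and 5 of 9 in sP/sNP). These correlations ran from -0.59 to 0.77 in P/NP and from -0.22 to 0.56 in sP/sNP. Differently numbered rats were not read beside them, so the count does not settle whether the numbers mark pairs. The labels name no pairing, and the main fits use none. With the animal number as a replicate block the sP/sNP differences were -0.67 ± 0.09 for Gabra2 (limma, adjusted p = 0.00336) and -1.14 ± 0.25 for Gabra4 (adjusted p = 0.0179). In those fits 2 members were called in sP/sNP and 0 in P/NP. Of the 31042 probe sets, 5035 were called in sP/sNP and 197 in P/NP.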
